A study of Penicillium oxalicum with 114 samples.

Results

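In the filamentous fungus Penicillium oxalicum, 51 of the 9863 gene IDs measured stood higher on Avicel (AV), a microcrystalline cellulose, than on wheat bran plus Avicel (WA) in the control strain, and kept at least 0.5 of their level on AV when the gene POXClrB was deleted. They were chosen by CPM, a gene's expected count divided by its library's total and scaled to a total of 1e6, with a gene missing from a library's table set at 0. The lowest of the 3 AV libraries of the control had to reach 10 CPM, and 4 times the sum of 1 CPM and the highest of the 3 WA libraries, at both 12 h and 36 h. The mean on AV without POXClrB had to be at least 0.5 of the control mean at both times. Of 99 IDs that met the conditions on the medium, 51 met this last one (51.5%) and 48 did not. These measured values chose the members, so they are described here without a test. A run of 18 members, POX01167 to POX01184, carries consecutive numbers, and no other members do. This run and the other 33 members are described separately, a division made after the values were seen. None of the 9 IDs used here as cellulase genes (POX01166, POX02740, POX03641, POX04786, POX05570, POX05571, POX05587, POX06835 and POX07535) and none of the 4 used as xylanase genes (POX00063, POX06783, POX08484 and POX08990) was a member (0 of 9 and 0 of 4). Those names rest on knowledge of earlier work on this fungus, and the files do not pair these IDs with products. The IDs matched 0 of the 9964 genes of the reference table, so the members are named by ID, and no product, sequence or position is given for them.

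Cellulose feeds a fungus only after secreted cellulases have cut it into soluble sugars. ClrB is known in filamentous fungi as a transcription factor that activates cellulase genes on cellulose, and clrB mutants grow poorly on it. Wheat bran holds starch, hemicellulose and protein beside cellulose and can be used without cellulases, while fatty acids are used through beta-oxidation.

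The series was designed to find genes whose transcripts follow those of cellulase and xylanase genes when the medium or a regulator changes. RNA-seq of mycelium gave 114 libraries in 33 groups, each with an expected count per gene. The mutants labelled MuPOXClrB, MuPOX01167, MuPOX02968, MuPOX04420 and MuPOX07277 each lack the gene in their name and are written here as dClrB, dPOX01167, dPOX02968, dPOX04420 and dPOX07277. The strain MuOES1167 (OES1167) has extra POX01167 under its own promoter, the control MuKu70 (Ku70) lacks the gene POXKu70, and HP7-1 is the wild type. The sample descriptions call dPOX07277 a control too, and here it is set against Ku70. They do not say whether the other mutants lack POXKu70 too, or how many clones were used. In the time course, hyphae grown on glucose were moved to AV or WA, and 3 libraries each came from dClrB on AV and WA at 12, 24 and 36 h, dPOX01167 on AV at 12 and 36 h and on WA at 12, 24 and 36 h, and Ku70 on AV at 12 and 36 h and on WA at 12, 24 and 36 h. One Ku70 WA library counted at 12 h is labelled 13 h. Induced cultures were moved to an inducing carbon source for 24 h, given as 2% Avicel in the growth protocol, with 3 libraries each of dClrB, dPOX02968, dPOX04420 and OES1167 and 24 of Ku70. Lipid cultures were moved for 24 h to AV plus a lipid, which was oleic acid, linolenic acid or arachidonic acid oil, with 3 libraries each of dPOX07277 and Ku70. Cultures of dPOX01167 and dClrB were also grown from spores for 72 h without transfer (3 libraries each), as was HP7-1 on wheat bran, wheat bran plus rice straw and wheat bran plus bagasse (1 library each) and on glucose (3 libraries). The growth protocol names Avicel for 24 h for all time-course samples, and the groups follow the sample descriptions.

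Library totals were 5368155 to 8267079 expected counts in the time course, 13277742 to 14731797 in 36 deep libraries and 365937 to 4242956 in 30 shallow ones. POX02968 was at 0.211 to 0.359 CPM in its own mutant and POX04420 and POX07277 were at 0 in theirs, against at least 30.1, 17.3 and 19.4 CPM elsewhere. No ID is labelled as POXClrB, and the summed level of the 9 cellulase IDs was 314 to 964 CPM in dClrB on AV, against 6669 to 13474 CPM in Ku70 on AV. POX01167 was at 0 in the dPOX01167 cultures from spores and at most 0.840 CPM in those on WA, but on AV it stood at 1603, 25.3 and 0 CPM at 12 h (libraries F, S, T) and at 95.6, 207 and 153 CPM at 36 h. In Ku70 on AV it stood at 212, 329 and 98.7 CPM at 12 h and 1214, 1236 and 157 CPM at 36 h in sets F, S and T, and in dClrB on AV at 380.3, 1449 and 163 CPM and 1708, 1719 and 217 CPM, so it was lowest in set T in these 4 groups. Because POX01167 was present in them, the AV libraries of dPOX01167 are called libraries labelled dPOX01167. Libraries 8, 9 and 10 of Ku70 induced had a summed cellulase level of 236 to 290.3 CPM, against 13149 to 99559.5 CPM in the other 21. Member counts for dClrB and dPOX04420, and spreads, are given with and without them. Counts of cellulase and xylanase IDs for these mutants are given only with them. Each time-course group has 1 library in each of 3 quantification sets, named F, S and T, that differ in FPKM per count. The labels give no separate cultures for the libraries of a group, so p-values measure the spread between these libraries, which may be technical. Since the RNA is from whole mycelium, fewer cells with a transcript and less of it per cell cannot be told apart. How reads shared by similar, overlapping or antisense genes were counted is not given in the sources used here, which touches neighbours in the run.

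In the values that chose the members, the run was the most abundant set. POX01177 had 1408, 10529 and 5316 CPM in dClrB on AV at 12 h, against 807, 1292 and 1069 CPM in Ku70, and at 36 h 9484, 11844 and 11752 CPM in dClrB against 5989, 7196 and 7223 CPM in Ku70. On WA it stood at 0 to 2.104 CPM in dClrB and 0 to 2.01 CPM in Ku70 at these times, so every AV library lay far above every WA library. POX01179 and POX01169 followed, with means of 3791 and 2839.5 CPM over the 6 Ku70 AV libraries, beside 3929 CPM for POX01177. The next were POX01173 (2352 CPM), POX01176 (1515 CPM), POX01168 (1422 CPM), POX01172 (1399 CPM, or 769.6 CPM without library 26), POX01182 (1053 CPM) and POX01174 (1029.6 CPM), all in the run. POX05887, with 757 CPM, was the only one of the 10 most abundant members outside it, and without library 28 POX01167 took its place. POX01172 differed between the quantification sets, with 4549, 1929 and 1004 CPM at 36 h and 542, 248 and 125 CPM at 12 h in sets F, S and T. It was highest in set F and lowest in set T at both times. By FPKM the order was another one. POX01176, with a coding length of 525 bases, had a mean of 4399 FPKM, POX01179 had 3362 FPKM and POX01177, with 5403 bases, had 752 FPKM. The FPKM values did not follow the coding lengths for every member. POX01172, with 1399 CPM and a shorter coding length than POX01176, had a mean of 729 FPKM. The order by FPKM is thus not read as an order per coding length. Coding lengths had a median of 934.5 bases in the run and 1422 bases among the other 33, against 1150.5 bases over all POX IDs.

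The ratio of the dClrB mean to the Ku70 mean on AV was over 1 for all 18 run members at 12 h, from 1.61 for POX01184 to 7.74 for POX01175 with a median of 4.09. At 36 h it ran from 0.811 for POX01184 to 1.76 for POX01174 with a median of 1.41. Among the other 33 members the median ratio was 1.59 at 12 h and 1.05 at 36 h, where 16 of them were under 1. Widest was the spread at 36 h, where POX09687 had a ratio of 12.3, with 418, 363 and 413 CPM in dClrB against 33.7, 29.5 and 33.8 CPM in Ku70, and POX09413 had a ratio of 11.8. Just inside the limit of 0.5 were POX05887 (0.503), POX08703 (0.507) and POX07954 (0.589), and just outside it POX06146 (0.479), POX09734 (0.471) and POX03532 (0.468), all at 36 h. The lowest AV levels inside were those of POX01318 (11.4 CPM), POX04560 (11.8 CPM) and POX03345 (12.3 CPM), and outside came POX03434 (8.004 CPM), POX08696 (7.87 CPM) and POX07845 (6.69 CPM). At the limit of 4 times the WA level stood POX01519 (4.09), POX00041 (4.10) and POX08703 (4.10) inside, and POX01390 (3.99), POX07899 (3.87) and POX01803 (3.82) outside. With 8 times in place of 4 times, 26 members would remain.

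**Figure D1:**
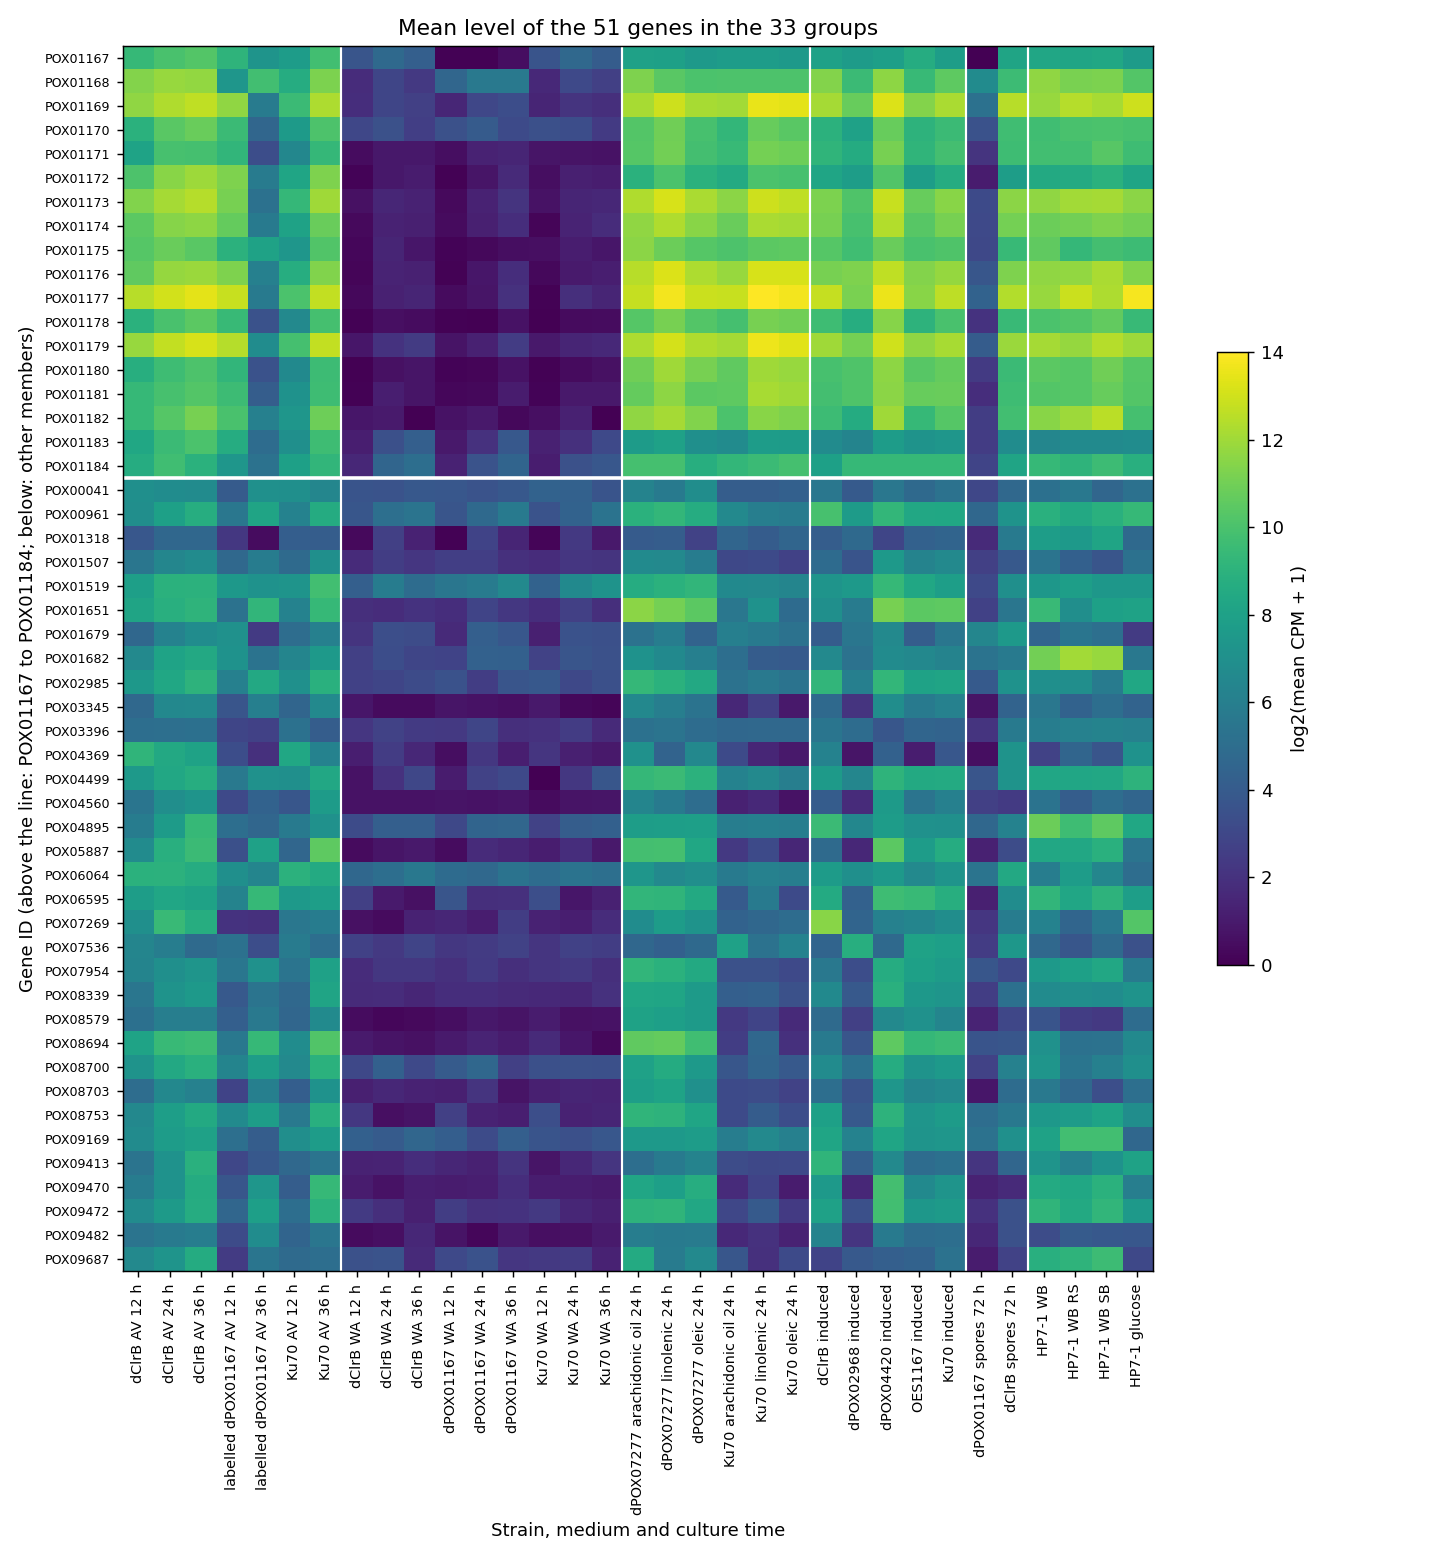
Mean level of each of the 51 members in the 33 groups, as log2(mean CPM + 1) by colour, with gene IDs down the page, the run above the white line, and groups of strain, medium and culture time across. The 9 WA columns are dark for nearly all members, and the run is bright in all other columns except those of the libraries labelled dPOX01167 at 36 h on AV and of dPOX01167 from spores.

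In dClrB at 24 h all 51 members were called higher on AV than on WA. A gene is called, here and below, where the adjusted p was under 0.05 and the log2 fold change was 1 or more in size. The choice of members did not use these libraries, but it required high levels in dClrB on AV at 12 and 36 h. The rise at 24 h was thus nearly fixed by that choice, and its count is a description. Of all 8147 genes tested 11.9% were higher and 9.01% lower, with a median log2 fold change of 0.01, against 10.09 for the run and 5.57 for the other 33. POX01177 had 8801, 7696 and 9092 CPM on AV and 0.371, 2.71 and 1.37 CPM on WA (log2 fold change 12.37, SE 1.46, adjusted p = 3.05e-08). POX01172 had 5488, 2271 and 1124 CPM on AV and 0.768, 1.75 and 0 CPM on WA (log2 fold change 11.64, SE 1.84, adjusted p = 5.23e-06). POX01173 rose by 11.18 (SE 1.38) and POX01176 by 10.98 (SE 1.35) on the log2 scale, with no overlap between the media. Outside the run the smallest of the 33 rises was 2.097 and the largest 10.95 on the log2 scale. Of the cellulase IDs 2 of 9 were higher and 1 lower on AV in dClrB, and of the xylanase IDs 0 of 4 in either direction. The summed run took 42117 to 57575 CPM on AV and 88.5 to 109 CPM on WA, and the share of all counts on AV was 4.21 to 5.76%.

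On WA at 24 h the members' levels leave little room for a test, since they were chosen for a low level on WA. Averaged over the 6 libraries compared, 40 of 51 members reached 1 CPM in dClrB and Ku70, and 42 of 51 in dPOX01167 and Ku70. The others passed the filter of a mean of 1 CPM over the time course through their AV levels, and nothing about either gene is read from the counts. For dClrB against Ku70, edgeR called 0 of 51 members, where 0.479% of all genes were higher and 0.233% lower, with 6 members at an unadjusted p under 0.05 and 0 called by DESeq2. For dPOX01167 against Ku70, 1 member was called, where 0.0245% of all genes were higher and 0.0368% lower. This was POX01168, next in number to the deleted gene, with 59.4, 40.3 and 46.8 CPM in dPOX01167 against 4.35, 10.05 and 8.28 CPM in Ku70 (log2 fold change 2.65, SE 0.41, adjusted p = 0.00057), so that the groups did not overlap. In a fit of these 2 groups alone its adjusted p was 0.275. At 12 and 36 h POX01168 was also above Ku70 in every library, with 29.3, 19.1 and 21.7 CPM in dPOX01167 against 2.53, 2.1002 and 1.51 CPM in Ku70 at 12 h and 65.2, 40.2 and 42.2 CPM against 7.37, 4.49 and 3.79 CPM at 36 h. The choice of members used those Ku70 libraries, so these values have no test. POX01167 itself had 0, 0.133 and 0 CPM in its mutant and 24.9, 27.3 and 23.9 CPM in Ku70 at 24 h, with an adjusted p of 0.0885 in edgeR, while DESeq2 called 1 member higher and 1 lower.

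In Ku70 on AV, the levels at 36 h and 12 h chose the members and are described without a test. The ratio of the 36 h mean to the 12 h mean had a median of 6.59 in the run, 3.65 among the other 33 and 0.986 over 8007 IDs with a mean of at least 1 CPM and a level above 0 at 12 h. POX05887 had 1408, 1490.3 and 1575 CPM at 36 h and 15.8, 31.8 and 22.1 CPM at 12 h. POX09470 had 842, 569 and 582 CPM at 36 h and 13.8, 20.5 and 15.1 CPM at 12 h. These were the members with the highest ratios, and the times did not overlap in either. POX04369 had the lowest ratio, with 60.1, 82.6 and 77.2 CPM at 36 h and 329, 269 and 357 CPM at 12 h, also without overlap. The summed run had 43562, 40181 and 40444 CPM at 36 h and 5404, 7268 and 6283 CPM at 12 h.

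**Figure D2:**
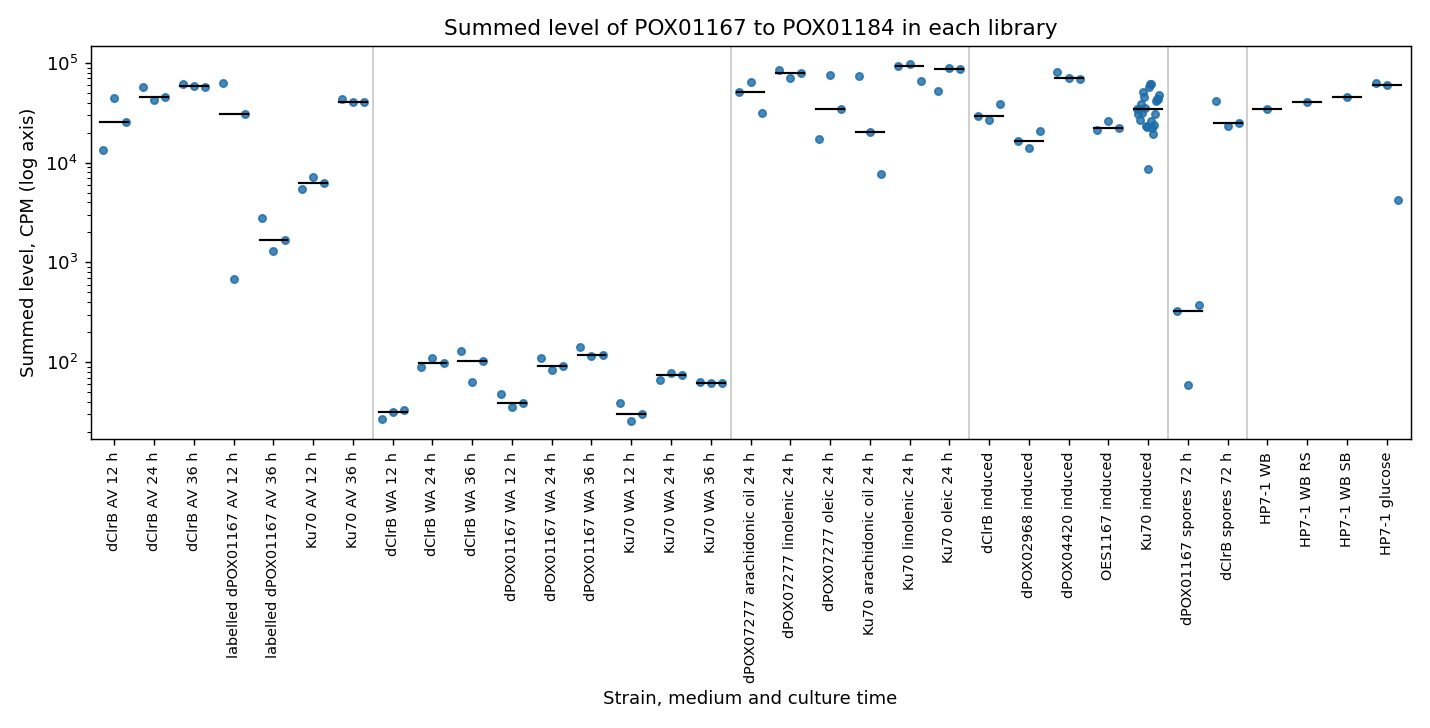
Summed level of the 18 run members in each library in CPM (log axis), by group, with a bar at each group's median. In the WA groups the points lie between 25.6 and 143 CPM, and elsewhere they lie at 1295 CPM or above, except the dPOX01167 cultures from spores and library S labelled dPOX01167 on AV at 12 h.

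At 12 h, in the AV libraries labelled dPOX01167, 45 members were higher than on WA and none lower (0), where 16.3% of all genes were higher and 12.6% lower. The choice of members required a higher level on AV than on WA in Ku70 at 12 h. A high count here was thus partly set by that choice and is a description. The labels give these AV libraries 1 genotype, but their POX01167 levels differed, and the p-values treat them as replicates. All 18 run members and 27 of the other 33 were called. The AV libraries were far apart, with a summed run of 62327, 688 and 30795 CPM in F, S and T on AV, against 47.7, 35.6 and 39.1 CPM on WA. POX01177 had 14256, 47.8 and 7672 CPM on AV and 0, 0.422 and 0.564 CPM on WA (log2 fold change 14.18, SE 1.57, adjusted p = 6.29e-09), library S being the low one on AV. POX01172, POX01176 and POX01178 had 6859.6, 27.3 and 683 CPM, 5717, 60.9 and 1759.7 CPM and 1419, 11.9 and 619 CPM on AV in the same order of libraries, and 1 expected count each over the 3 WA libraries, too few for a fold. Library T, whose POX01167 was at 0, had 30795 CPM of the run, against 5404, 7268 and 6283 CPM in the Ku70 AV libraries of 12 h. With a block for the letters F, S and T in a fit of the 2 groups, 33 members were called, as in that fit without the block.

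At 36 h the libraries labelled dPOX01167 had 36 members higher and 2 lower on AV than on WA, where 10.1% of all genes were higher and 16.9% lower. The choice of members required the higher level on AV in Ku70 at 36 h too, so the count of rises is likewise a description. The median log2 fold change was 3.89 in the run, 3.98 among the other 33 and -0.00 over all genes. POX08694 had 1357, 72.7 and 562 CPM on AV and 0.923, 1.11 and 1.26 CPM on WA (log2 fold change 8.94, SE 1.16, adjusted p = 1.3e-07). POX01175 had 409, 169.6 and 224 CPM on AV and 0.791, 0 and 0.562 CPM on WA (log2 fold change 8.93, SE 1.09, adjusted p = 3.77e-08), and POX01182 rose by 7.86 on the log2 scale (SE 1.42). POX01182 had 4.97 expected counts in all over the 3 WA libraries, so its fold rests on few counts. POX01167, the gene named in the label, rose by 8.34 (SE 1.68). POX01679 had 9.35, 1.23 and 2.30 CPM on AV and 13.4, 10.4 and 14.3 CPM on WA (log2 fold change -1.83, SE 0.36, adjusted p = 7.12e-05), and POX01318 fell by 2.44 (SE 0.72), but neither was called in a fit of the 2 groups alone. Cellulase IDs were lower on AV in 6 of 9 cases and higher in 0, and xylanase IDs lower in 2 of 4 and higher in 0. Beside Ku70 on AV at 36 h, a contrast whose control values chose the members, the summed run had 2761, 1295 and 1688 CPM in the libraries labelled dPOX01167, against 43562, 40181 and 40444 CPM in Ku70. The median of the other 33 had 132, 17.3 and 54.3 CPM in F, S and T, against 212, 209.8 and 204 CPM in Ku70. POX01168 had 975, 762 and 828 CPM in the libraries labelled dPOX01167 against 2324, 2637 and 2347 CPM in Ku70, while POX01177 had 101, 12.5 and 48.4 CPM against 5989, 7196 and 7223 CPM.

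In cultures grown from spores for 72 h, 43 members were lower in dPOX01167 than in dClrB and none higher (0), where 17.7% of all genes were lower and 18.3% higher. No Ku70 library from spores is analysed here, so these strains were compared with each other. All 18 run members were lower, with a summed run of 325, 59.1 and 376 CPM in dPOX01167 against 41129, 23498 and 24884 CPM in dClrB. POX01167 was at 0 in the 3 dPOX01167 libraries and had 261, 308 and 295 CPM in dClrB, at least 217-fold lower in dPOX01167 against a floor of 3 counts per library. POX01173 had 10.3, 1.92 and 10.9 CPM in dPOX01167 and 4715, 2177 and 2305 CPM in dClrB (log2 fold change -8.85, SE 0.80, adjusted p = 0.000395). POX01181 had 2.35, 2.40 and 3.01 CPM in dPOX01167 and 1095, 692 and 644 CPM in dClrB (log2 fold change -8.44, SE 0.42, adjusted p = 0.000126), and in both genes every dPOX01167 library lay below every dClrB library. POX01168 was the closest in the run, with 151, 14.4 and 150.2 CPM in dPOX01167 and 859, 705 and 791 CPM in dClrB (log2 fold change -3.14, SE 0.75, adjusted p = 0.015). Outside the run POX04369 had 0, 0.961 and 0.376 CPM in dPOX01167, 3 expected counts in all, and 177, 111 and 146 CPM in dClrB. The median over the other 33 was -2.74 on the log2 scale, and the 8 members not called were POX01679, POX01682, POX04560, POX07954, POX08579, POX08694, POX08753 and POX09470. Of the cellulase IDs 2 of 9 were lower and 0 higher in dPOX01167, and of the xylanase IDs 2 of 4 and 0.

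**Figure D3:**
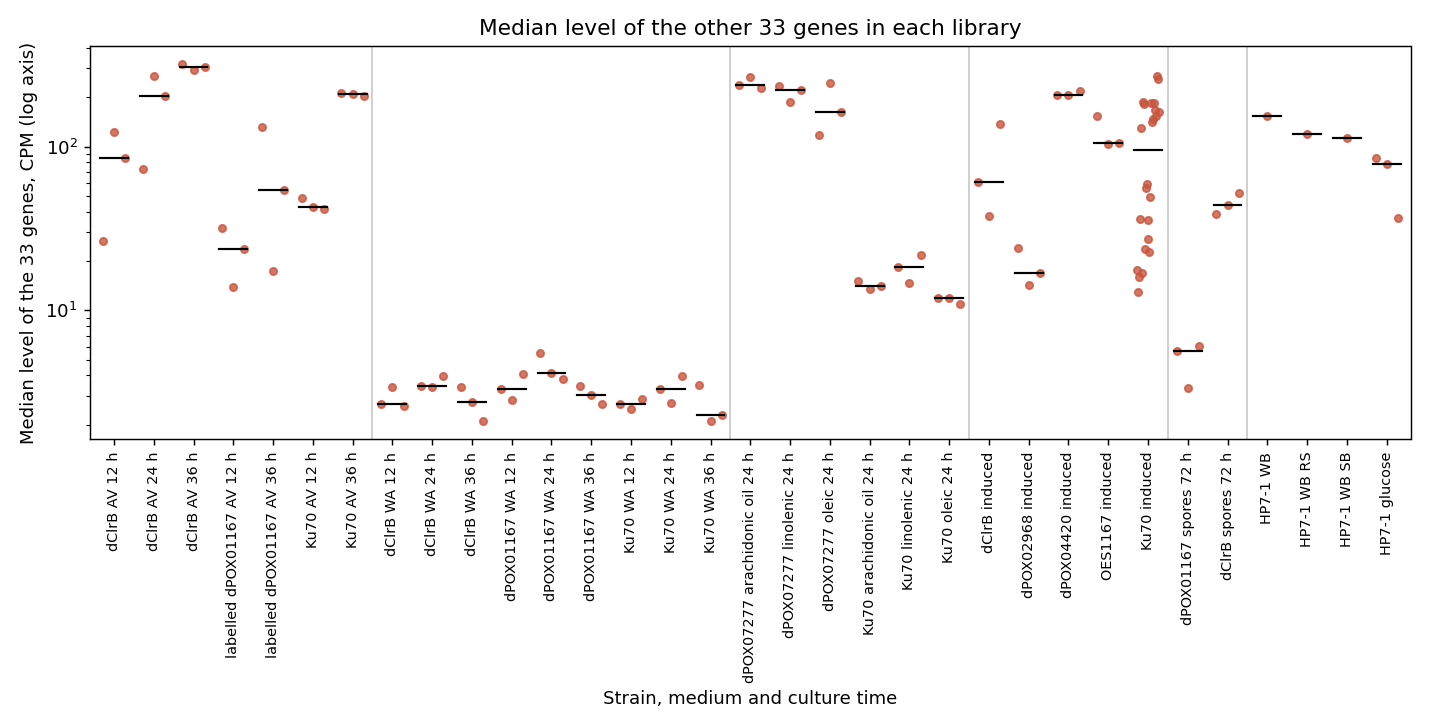
Median level of the other 33 members in each library in CPM (log axis), by group, with a bar at each group's median. On the lipids the dPOX07277 libraries lie between 117 and 268 CPM and the Ku70 libraries between 10.9 and 21.8 CPM, and the 24 Ku70 induced libraries are spread from 13.02 to 269.5 CPM.

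Among the 24 Ku70 induced libraries, the members outside the run varied widely under a single label. POX05887 stood at 3.06 CPM at the lowest, 174 at the median and 1241 at the highest, and POX08694 at 12.5 CPM at the lowest, 430.3 at the median and 2337 at the highest. The ratio of the highest to the lowest library had a median of 32.8 over 32 of the other members, against 8.27 over the 18 run members and 3.81 over 7083 IDs above 0 in all 24 libraries with a mean of at least 10 CPM. Without library 10 these medians were 32.8, 4.13 and 3.62, and without libraries 8, 9 and 10 they were 28.54, 3.92 and 3.07, so library 10 set the value of the run. POX04369, the 33rd, was at 0 in at least 1 library and at 105 CPM at the highest. POX01167 ranged from 118 to 342 CPM. Both kinds of table held low and high libraries, with POX08694 at 12.5 CPM at the lowest, 47.4 at the median and 1646 at the highest in the 12 shallow libraries and at 43.9 CPM at the lowest, 1084 at the median and 2337 at the highest in the 12 deep ones. POX07536 did not follow them, with 7.97 and 8.68 CPM in libraries 20 and 21, where POX08694 was highest, and 305 CPM in library 1S, where POX08694 was lowest. In libraries 8, 9 and 10 the summed run was 23190.2, 22800.1 and 8644 CPM, against 19433 to 61429 CPM in the other 21. This spread among controls enters every comparison with them, and each mutant was tested against the 12 Ku70 libraries of its own kind of table.

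**Figure D4:**
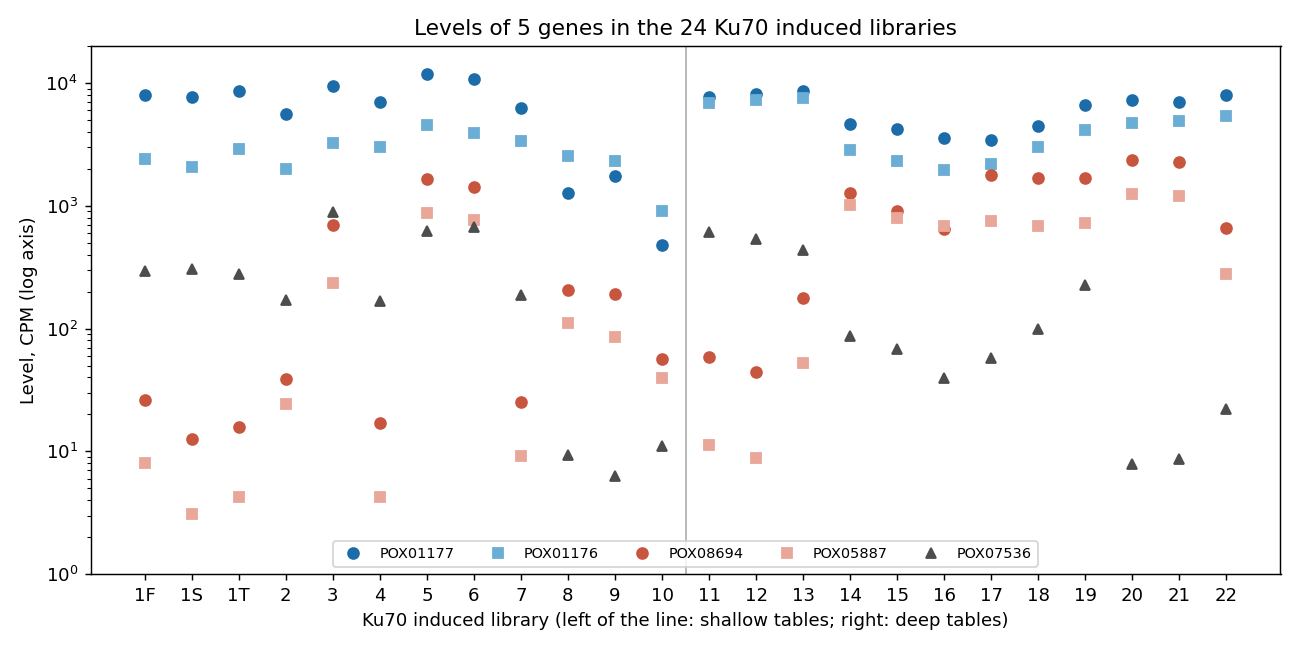
Levels of 2 run members (POX01177 and POX01176) and 3 others (POX08694, POX05887 and POX07536) in the 24 Ku70 induced libraries in CPM (log axis), with library names across and the shallow tables left of the line. POX08694 spans 12.5 to 2337 CPM, while the run members shown stay at 1266 CPM or above outside library 10.

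On the inducing carbon source dClrB had 6 members higher and 1 lower than Ku70, where 7.40% of all genes were higher and 2.49% lower. Median log2 fold changes were -0.28 in the run, 0.16 among the other 33 and -0.05 over all genes. POX04369 had 73.8, 22.5 and 119.7 CPM in dClrB and 0 CPM at the lowest, 1.39 at the median and 3.82 at the highest in the 12 shallow Ku70 libraries (log2 fold change 5.47, SE 0.63, adjusted p = 1.97e-05). In the 12 deep Ku70 libraries, not used in this test, it stood at 0.479 CPM at the lowest, 11.7 at the median and 105 at the highest. POX07269 had 5008, 1382 and 2449.6 CPM in dClrB, against 17.4 CPM at the lowest, 140.2 at the median and 712 at the highest in Ku70 (log2 fold change 4.02, SE 0.64, adjusted p = 0.000455). Every dClrB library lay above every shallow Ku70 library for these genes and for POX09413 (13.97-fold) and POX04895 (6.73-fold), while POX01682 and POX03396 rose by 1.42 (SE 0.33) and 1.42 (SE 0.23) on the log2 scale. The single fall was that of POX01184, the last of the run, with 128, 345 and 260.4 CPM in dClrB against 278 CPM at the lowest, 626 at the median and 866 at the highest in Ku70 (log2 fold change -1.51, SE 0.36, adjusted p = 0.0111), and it was not called without dClrB library F. POX05887, at 38.5, 4.44 and 41.1 CPM in dClrB against 3.06 CPM at the lowest, 31.8 at the median and 879 at the highest in Ku70, was not called (log2 fold change -2.74, adjusted p = 0.361). In the same comparison 5 of 9 cellulase IDs and 1 of 4 xylanase IDs were lower and none higher (0). Without Ku70 libraries 8, 9 and 10, 8 members were higher and 3 lower, and DESeq2 called 7 higher and 4 lower.

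In dPOX02968, 24 members were lower than in Ku70 and none higher (0), where 3.14% of all genes were lower and 2.17% higher. These were 6 run members and 18 others, with median log2 fold changes of -1.26 in the run, -2.77 among the other 33 and -0.04 over all genes. The deep controls were not alike. The median level of the other 33 was 27.2, 22.9 and 49.1 CPM in Ku70 libraries 11, 12 and 13. In libraries 14 to 22 it was 140.6 to 269.5 CPM, and in dPOX02968 24.0, 14.3 and 16.8 CPM. How far the falls rest on libraries 14 to 22 was not tested. POX05887 had 2.44, 0.843 and 2.53 CPM in dPOX02968, against 8.83 CPM at the lowest, 702 at the median and 1241 at the highest in the 12 deep Ku70 libraries (log2 fold change -8.25, SE 1.69, adjusted p = 0.0128). POX08694 had 17.4, 5.48 and 12.5 CPM in dPOX02968, against 43.9 CPM at the lowest, 1084 at the median and 2337 at the highest in Ku70 (log2 fold change -6.50, SE 1.31, adjusted p = 0.0125). POX09470 fell 109.7-fold and POX01651 fell 44.5-fold, and for these 4 genes every dPOX02968 library lay below every deep Ku70 library. The lowest shallow Ku70 libraries stood at 3.06 CPM of POX05887 and 12.5 CPM of POX08694, the second within the range of dPOX02968. Without dPOX02968 library F, S or T the count fell to 1, 1 and 4, and with all 24 Ku70 libraries to 3. Of the cellulase IDs 0 of 9 were called and of the xylanase IDs 0 of 4, with medians of 1.13 and 1.45 on the log2 scale.

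In dPOX04420, 7 members were higher than in Ku70 and none lower (0), where 2.92% of all genes were higher and 2.50% lower. The 7 were POX01171, POX01172, POX01174, POX01180 and POX01182 of the run, and POX01682 and POX04369. Median log2 fold changes were 1.09 in the run, 1.48 among the other 33 and -0.05 over all genes. POX01182 had 4330.4, 4197 and 3862 CPM in dPOX04420, against 514 CPM at the lowest, 769 at the median and 2349 at the highest in the 12 shallow Ku70 libraries (log2 fold change 1.78, SE 0.40, adjusted p = 0.0119). POX01172 had 1095, 1462 and 907 CPM in dPOX04420, against 57.1 CPM at the lowest, 314 at the median and 624 at the highest in Ku70 (log2 fold change 1.64, SE 0.45, adjusted p = 0.0362). POX04369 rose by 3.44 (SE 0.66) and POX01682 by 1.55 (SE 0.30) on the log2 scale. In the deep Ku70 libraries, not used in this test, POX04369 ranged from 0.479 to 105 CPM. The count was 0, 2 and 2 without dPOX04420 library F, S or T, 1 with all 24 Ku70 libraries, 18 with DESeq2, and 14 (12 higher and 2 lower) without Ku70 libraries 8, 9 and 10. Of the cellulase IDs 0 of 9 and of the xylanase IDs 0 of 4 were called, with medians of -2.14 and -3.17. These counts include Ku70 libraries 8, 9 and 10 and were not tested without them, so no lack of change is read from them. The summed cellulase level was 17960, 13476 and 17445 CPM in dPOX04420. It was 236 to 290.3 CPM in Ku70 libraries 8, 9 and 10, and 75917.5 to 99559.5 CPM in the other shallow Ku70 libraries.

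In OES1167, where POX01167 stood at 428, 414 and 394 CPM against 118 CPM at the lowest, 234 at the median and 342 at the highest in the deep Ku70 libraries, edgeR called 0 of 51 members, where 0.666% of all genes were higher and 0.315% lower. POX01167 differed by 0.91 on the log2 scale (SE 0.19, adjusted p = 0.0184), just under the minimum change. At an unadjusted p under 0.05 stood 12 members, and DESeq2 called 1 higher and 4 lower. The medians were -0.70 in the run, -0.55 among the other 33 and -0.06 over all genes. The summed run was 21330.0, 26087 and 22176 CPM in OES1167, within the 19433 to 61429 CPM of the deep Ku70 libraries. Of the cellulase IDs 0 of 9 and of the xylanase IDs 0 of 4 were called.

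In Ku70 with a lipid added to AV, 27 of the other 33 members were lower than in the 12 deep induced Ku70 libraries and none of them higher (0), while in the run 1 member was higher and 0 lower. Over all genes 7.69% were lower and 2.21% higher. Median log2 fold changes were 0.48 in the run, -3.23 among the other 33 and -0.06 over all genes. The median level of the other 33 was 10.9 to 21.8 CPM in the Ku70 lipid libraries. In the deep induced controls it was 27.2, 22.9 and 49.1 CPM in libraries 11, 12 and 13 and 140.6 to 269.5 CPM in libraries 14 to 22. The lowest shallow induced library, 1S, had 13.02 CPM. How far these falls rest on libraries 14 to 22 was not tested. POX08694 had 3.66, 3.31 and 7.27 CPM on arachidonic acid oil, 10.3, 6.90 and 55.9 CPM on linolenic acid and 3.91, 2.22 and 2.35 CPM on oleic acid, against 43.9 CPM at the lowest, 1084 at the median and 2337 at the highest induced (log2 fold change -7.18, SE 0.78, adjusted p = 2.94e-06). POX05887 fell 144-fold, POX09470 81.9-fold and POX04560 72.3-fold. POX04560 had 0.347 to 3.02 CPM over the 9 lipid libraries, against 2.46 CPM at the lowest, 121 at the median and 159.7 at the highest induced, and for each of these 4 genes library 43 on linolenic acid lay above the lowest induced library. POX01177 had 16673, 3635 and 1158 CPM on arachidonic acid oil, 17678, 19751 and 13235 CPM on linolenic acid and 9342, 16012 and 16380.5 CPM on oleic acid, against 3432 CPM at the lowest, 6804 at the median and 8589 at the highest induced (log2 fold change 1.08, SE 0.34, adjusted p = 0.0157). Libraries 39 and 40 on the oil lay within and below the induced range, and its rise was not called without library 38 or with all 24 induced libraries. Of the cellulase IDs 1 of 9 was lower, and of the xylanase IDs 1 of 4, with none higher (0 and 0). Lipid and induced cultures bear different labels, and whether they were grown side by side is not given in the sources used here.

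Among the lipids, Ku70 on arachidonic acid oil had 1 member higher and 0 lower than on linolenic and oleic acid, where 1.56% of all genes were higher and 0.719% lower. This was POX07536, with 289.7, 286 and 204 CPM on arachidonic acid oil, against 33.9, 22.4 and 58.9 CPM on linolenic acid and 118, 51.7 and 51.4 CPM on oleic acid (log2 fold change 2.27, SE 0.30, adjusted p = 0.000935). No library of either acid reached the lowest on the oil. The summed run differed among the 3 libraries on the oil, with 73898, 20413 and 7795 CPM in libraries 38, 39 and 40, against 52208 to 98165 CPM on the acids. Without library 38, 1 member was higher and 16 lower on the oil. DESeq2 called 4 higher and 3 lower with all libraries.

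Most of the other 33 members were higher in dPOX07277 than in Ku70 on each lipid, and no run member was called with all libraries in. The median of the other 33 ran from 13.02 to 269.5 CPM among the 24 Ku70 induced libraries, under a single label. Whether the cultures as well as the deletion set the difference on lipids was not tested. On arachidonic acid oil 29 members were higher and 1 lower in dPOX07277 than in Ku70, where 8.16% of all genes were higher and 6.26% lower. On linolenic acid 27 were higher and 1 lower, where 9.34% were higher and 5.42% lower, and on oleic acid 29 were higher and 2 lower, where 22.4% were higher and 10.5% lower. All these calls were outside the run, of which 0 of 18 members were called on any lipid, with 4, 0 and 2 at an unadjusted p under 0.05. On the oil this depended on Ku70 library 38, without which 43 members were called, more than the 33 outside the run. Median log2 fold changes of the other 33 were 4.11, 3.55 and 3.72 on the oil, linolenic acid and oleic acid, against 0.66, 0.10 and -0.62 in the run and -0.00, -0.00 and 0.14 over all genes. The same 27 members were higher on all 3 lipids and 29 on at least 1, the exceptions among the 33 being POX01318, POX01679, POX03396 and POX07536.

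POX08694 had 1525, 1680.1 and 1360.0 CPM in dPOX07277 on arachidonic acid oil, against 3.66, 3.31 and 7.27 CPM in Ku70 (log2 fold change 8.34, SE 0.86, adjusted p = 2.83e-06). On linolenic acid it had 1828, 1751 and 1458 CPM in dPOX07277 against 10.3, 6.90 and 55.9 CPM in Ku70 (log2 fold change 6.10, SE 0.78, adjusted p = 2.34e-05), and on oleic acid 233, 1525 and 763 CPM against 3.91, 2.22 and 2.35 CPM (log2 fold change 8.32, SE 0.87, adjusted p = 2.94e-06). The strains did not overlap on any lipid, and library F on oleic acid was the lowest of the mutant. POX05887 rose 229-fold on the oil, 118-fold on linolenic acid and 195-fold on oleic acid. POX09470 had 311, 297 and 342 CPM in dPOX07277 on the oil, against 1.17, 1.999 and 3.74 CPM in Ku70, and rose 139-fold, 40.4-fold and 485-fold on the 3 lipids in the same order. POX09472 rose 80.5-fold on the oil, POX07954 49.04-fold on linolenic acid and POX04369 132-fold on oleic acid, the last with 235, 10.5 and 32.7 CPM in dPOX07277 against 0.769, 0.834 and 1.24 CPM in Ku70. The mutant levels of POX08694 on the lipids lay within the range of the induced Ku70 libraries, where it reached 2337 CPM.

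The difference between dPOX07277 and Ku70, called the effect here, itself differed between lipids for few members, in a test added after seeing the data. Between the oil and oleic acid 2 of 51 members had a more negative effect on the oil (POX07536 and POX09413), where 13.1% of all genes were more negative and 4.87% more positive. Between the oil and linolenic acid this was 1 member, POX07536, where 0.648% of all genes were more negative and 0.507% more positive. Between linolenic and oleic acid 3 members had a more negative effect on linolenic acid (POX06595, POX08579 and POX09470), where 13.9% of all genes were more negative and 3.72% more positive.

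POX07536 moved against the rest. It had 26.4, 24.5 and 22.97 CPM in dPOX07277 on arachidonic acid oil, against 289.7, 286 and 204 CPM in Ku70 (log2 fold change -3.39, SE 0.40, adjusted p = 1.15e-05). On linolenic acid it fell by 1.05 (SE 0.38, adjusted p = 0.0459) and on oleic acid by 1.25 (SE 0.37, adjusted p = 0.00931) on the log2 scale. The mutant levels over the 3 lipids were 15.2 to 33.6 CPM, against 22.4 to 289.7 CPM in Ku70. The fall on linolenic acid, where the strains overlapped, was not called without mutant library S or T or Ku70 library 41 or 43. The fall on oleic acid was not called without Ku70 library 44. POX01318 was lower on oleic acid, with 0.566, 11.9 and 5.22 CPM in dPOX07277 against 23.4, 19.2 and 24.7 CPM in Ku70 (log2 fold change -1.82, SE 0.50, adjusted p = 0.00542), a fall not called in a fit of these 2 groups alone. In the run POX01177 had 15546, 11952 and 13677 CPM in dPOX07277 on linolenic acid, against 17678, 19751 and 13235 CPM in Ku70 (log2 fold change -0.29, SE 0.67). Without Ku70 library 38 the count on the oil was 42 higher and 1 lower, more than the 33 members outside the run, so run members were among them. The cellulase IDs were higher in 1, 2 and 1 of 9 cases and lower in 4, 0 and 4 on the oil, linolenic acid and oleic acid. The xylanase IDs were higher in 0, 1 and 1 of 4 cases and lower in 4, 0 and 0.

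In the wild type HP7-1, no run member passed the test between wheat-bran media and glucose (0 of 18 in edgeR, with 1 at an unadjusted p under 0.05). On the 3 wheat-bran media 10 members were higher and 7 lower than on glucose, all outside the run, where 11.5% of all genes were higher and 10.5% lower. Median log2 fold changes were -0.01 in the run, -0.01 among the other 33 and 0.13 over all genes. The summed run was 34600.0, 40245 and 45569 CPM on wheat bran, wheat bran plus rice straw and wheat bran plus bagasse, against 63732, 60277 and 4237 CPM on glucose, where the last, library T, stood apart. High levels of the run were thus found on glucose, with no cellulose, and on wheat bran at 72 h in HP7-1, while all 27 WA libraries at 12 to 36 h had 25.6 to 143 CPM. Strain, time and transfer differ with the medium there and cannot be told apart. POX09687 had 452, 544 and 779.6 CPM on the wheat-bran media and 10.9, 7.53 and 3.32 CPM on glucose (log2 fold change 6.14, SE 0.46, adjusted p = 2.4e-05). POX01682 had 2040.5, 4329 and 3694 CPM on the wheat-bran media and 49.2, 60.3 and 35.4 CPM on glucose (log2 fold change 5.78, SE 0.51, adjusted p = 5.09e-05), and POX09169 and POX05887 rose 22.8-fold and 7.81-fold. POX07269 had 73.7, 23.1 and 47.8 CPM on the wheat-bran media and 861, 1283 and 1501 CPM on glucose (log2 fold change -5.12, SE 0.48, adjusted p = 6.89e-05), and the media did not overlap. POX04369, POX08579 and POX02985 fell 10.6-fold, 6.02-fold and 4.07-fold. Each wheat-bran medium has 1 library, and their differences are part of the spread. On the same contrast 8 of 9 cellulase IDs and 4 of 4 xylanase IDs were higher and none lower (0).

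**Figure D5:**
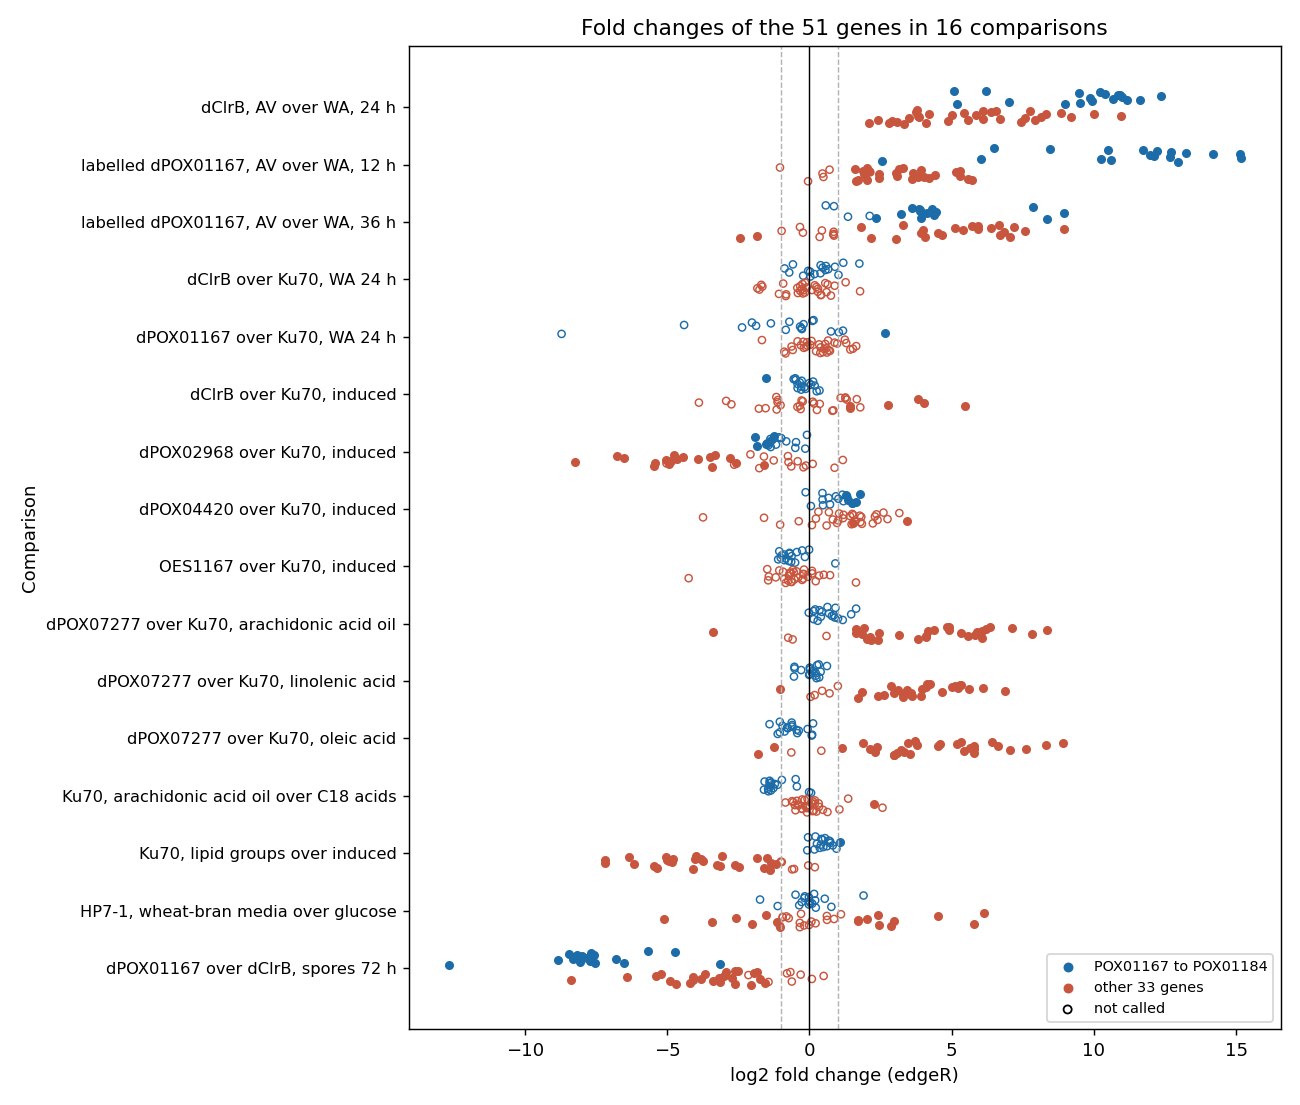
Log2 fold changes of the 51 members from edgeR in the 16 comparisons, with run members in blue, other members in red, open points for members not called, and dashed lines at a change of 1 in either direction. On the lipids the other members lie to the right for dPOX07277 and to the left for Ku70 against induced, with the run nearer 0 in both.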

How the data were processed

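RNA-seq of Penicillium oxalicum gave 1 table per library, each with expected counts, TPM and FPKM per gene as deposited by the authors, per the file headers. The submitters' processing notes name RSEM 1.2.12, BWA 0.7.10-r789, DESeq2 and Bowtie2 2.1.0. What each was used for, and the build and gene models, are not given in the sources used here. Members and gene lists were chosen with earlier results of these data known. The expected counts deposited by the authors were rounded to integers (a shift of no more than 0.00861% per library). The 29 IDs without the POX prefix (at most 0.0670% of counts) stayed among the genes given to the tests. The FPKM values deposited by the authors were used only for levels compared between genes, and the TPM values deposited by the authors were not used. An ID missing from a library's table was counted as 0.

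Differences were tested with the quasi-likelihood test of edgeR 4.0.16 (two-sided, TMM scaling, genes averaging 1 CPM or more in the fitted libraries, Benjamini-Hochberg adjustment over all genes tested) in R 4.3.3 with limma 3.58.1. A gene was called where the adjusted p was under 0.05 and the log2 fold change was 1 or more in size. Errors are standard errors of the log2 fold change. Time-course groups shared 1 fit, as did lipid groups, and induced mutants were tested against the Ku70 libraries of the same depth class. The test was tried on simulated data. A planned test of Ku70 on AV at 36 h against 12 h is not reported, since its libraries chose the members. Alternatives were DESeq2 1.42.0, no filter on low counts, groups compared alone, all 24 induced Ku70 libraries, leaving out each library, and a block for the letters F, S and T. A block for quantification set, leaving out Ku70 libraries 8, 9 and 10 (for the spread among induced controls, each library in turn too), and differences of the dPOX07277 effect between lipids were added after seeing the data.

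Deviations of same-letter libraries from their group means correlated at 0.570 to 0.841 in the time course, so the letters pair those samples, and at 0.00628 to 0.0432 in the spore cultures, where they share only a letter. The reported time-course tests used no block, so their standard errors and p-values include the difference between sets. The genes named are the 10 members with the highest mean CPM in Ku70 on AV, the 3 members nearest inside and the 3 IDs nearest outside each limit, up to 4 called members per direction in each comparison with the largest change, and the deleted genes. Others are named to complete a count or because they stood out after their values were seen. Tables were handled with Python 3.11.15 and pandas 2.3.3 and drawn with matplotlib 3.10.9.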

Additional observations from a re-analysis of the deposited data

Results flagged for a closer look

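The difference between dPOX07277 and Ku70 was unlike between lipids for 6 gene and lipid pairs. This was edgeR's test of the change in that difference, with Benjamini-Hochberg adjustment over all genes, added after seeing the data. Between arachidonic acid oil and oleic acid 2 of 51 members differed, where 4.87% of all genes were more positive on the oil and 13.1% more negative. These were POX07536, with a difference of -2.14 on the log2 scale (SE 0.53, adjusted p = 0.0165), and POX09413, with -1.55 (SE 0.51, adjusted p = 0.0391). Between the oil and linolenic acid 1 member differed, POX07536, with -2.34 (SE 0.53, adjusted p = 0.0416), where 0.507% and 0.648% of all genes did. Between linolenic and oleic acid 3 members differed, where 3.72% and 13.9% of all genes did. POX06595 had a difference of -2.20 (SE 0.60, adjusted p = 0.0209), POX08579 of -1.41 (SE 0.49, adjusted p = 0.0478) and POX09470 of -3.59 (SE 0.83, adjusted p = 0.0131). No run member differed between lipids in this way.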

How the results depend on the processing

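Of 59 counts of members under settings other than leaving out a library, 47 stayed within 1.5 times the reported one, and of 216 values of named genes 202 kept their direction and call, 14 lost the call and 0 reversed. Leaving out 1 library kept 324 of 351 named values, lost 27 calls and reversed 0. DESeq2 gave 2 called members for dPOX01167 against Ku70 on WA (reported 1), 11 for dClrB induced (7), 18 for dPOX04420 (7), 5 for OES1167 (0) and 7 for Ku70 on arachidonic acid oil against the acids (1). Fits of the groups alone gave 0 for dPOX01167 on WA and 4 for the oil. All 24 induced Ku70 libraries gave 3 for dPOX02968 (24) and 1 for dPOX04420, and without Ku70 libraries 8, 9 and 10, chosen after seeing the data, 11 were called for dClrB and 14 for dPOX04420. The cause of these shifts was not tested. The number of members was 26 at 8 times the WA level and 42 with TMM scaling. Leaving out 1 library gave 1 to 4 for dPOX02968, 0 to 2 for dPOX04420, 1 to 17 for the oil, 49 to 57 for the number of members and 54 without the library labelled 13 h. With a replicate block by letter, 49 members were called for dClrB on AV against WA, 33 and 36 for the libraries labelled dPOX01167 at 12 and 36 h and 41 in spore cultures. Shallow tables limit what can be seen of members at a few counts.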
